A study of Mus musculus with 6 samples.

Results

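Proteasome genes were followed in the mRNA of mouse pachytene spermatocytes, the germ cells of the long pachytene stage of meiosis. Members were all genes whose symbol begins with Psma, Psmb, Psmc, Psmd, Psme, Psmf or Psmg and a number, without the meiotic recombination gene Psmc3ip and without pseudogenes. The gene name table held 49 such names, of which 45 matched a row among the 21310 genes of the deposited count table. Psmb9, Psmb10, Psmb11 and Psme2b matched no row and were not analysed here. Of the 45 genes, 43 reached 5 CPM (the read count relative to the scaled library total) in at least 1 library.

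The study measured mRNA in 1 wild-type (WT) library and 1 Alkbh1-/- library, and small RNA in 4 further libraries that hold no values for these genes. Both mRNA libraries came from pachytene spermatocytes of testes. The Alkbh1-/- mice carry a deletion of exon 6 of Alkbh1, and the line was backcrossed onto C57/BL6; no label gives the age or number of the mice, or how the cells were purified. Alkbh1 is a dioxygenase of the AlkB family. Alkbh1 itself had 171 counts in WT and 209 in Alkbh1-/- (ratio 0.962, 95% exact interval 0.782 to 1.18). Reads from exons outside the deletion are part of these counts, so they do not check the genotype. Read counts over all genes came to 8222671 for WT and to 10229260 for Alkbh1-/-. With 1 library per genotype there is no test of the genotype, and every interval below covers counting error only. Without an exon length for each gene, levels are compared between libraries and not between genes.

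The proteasome is the protease that degrades proteins tagged with ubiquitin. Its barrel-shaped core particle has outer rings of alpha subunits (Psma) and inner rings of beta subunits (Psmb), and Psmb5, Psmb6 and Psmb7 carry the active sites. The regulatory particle caps the barrel: a base with a ring of ATPases (Psmc) unfolds the substrate, and a lid (Psmd) removes ubiquitin. Spermatocytes and spermatids also build a testis form of the core, in which Psma8 takes the place of Psma7, and male germ cells use the cap Psme4 (PA200), which is linked to the removal of histones.

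Proteasome mRNA differed little between the libraries, apart from Psma7 and Psme1, a gene with few counts. Summed over the 45 genes, 43451 counts in WT and 54125 in Alkbh1-/- made up 0.528% and 0.529% of all gene counts. The median log2 fold (Alkbh1-/- over WT, with a pseudocount of 1 CPM) was -0.07 over the 43 genes, beside -0.02 over all 12189 genes with 5 CPM or more. At 1.5-fold, 2 of the 43 genes were lower in Alkbh1-/- and 0 were higher. Among all 12189 genes, 8.79% were lower and 8.06% higher by that measure. The genes past 1.5-fold were Psma7 (log2 fold -0.72) and Psme1 (-0.65). The nearest genes inside the threshold were Psmg3 (-0.40) and Psmd10 (0.36). None of the 43 genes reached 2-fold, while 1.8% of all genes were that much higher and 2.71% that much lower (4.5% together).

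The folds of proteasome genes lay close together. A log2 fold within 0.25 of 0 was found in 34 of the 43 (79.1%) and in 54.7% of all genes over the same floor. Among genes with 20 CPM or more, where counting error is smaller, these shares were 86.1% of 36 proteasome genes and 61.9% of 8046 genes. The SD of the log2 fold across genes was 0.18 for those 36 and 0.39 for the 8046. At 50 CPM or more, all 27 remaining proteasome genes lay between -0.35 and 0.21. The exact interval of the ratio lay wholly below 1 for 12 of the 43 genes (27.9%) and wholly above 1 for 5 (11.6%), where all genes gave 26.8% below and 23.7% above.

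**Figure D1:**
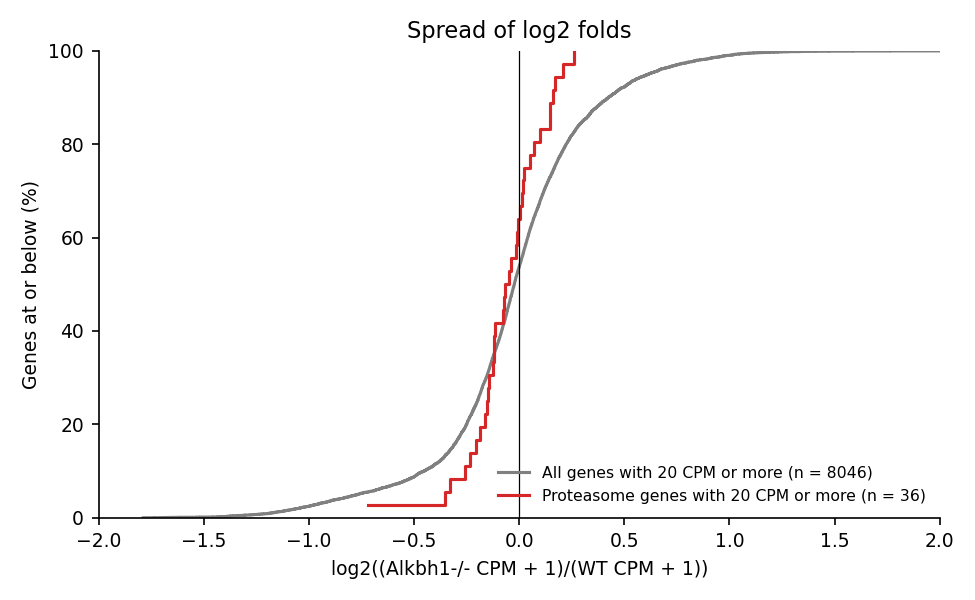
Cumulative share of genes (vertical axis, percent) at or below each log2 fold of Alkbh1-/- over WT (horizontal axis), for the 36 proteasome genes and the 8046 genes of the whole table with 20 CPM or more in either library. The steps of the proteasome genes rise within a narrow range around 0, with Psma7 alone at -0.72 on the left.

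Of the alpha ring, Psma7 was lower in Alkbh1-/- while its testis counterpart Psma8 was nearly level. Psma8 had 1565 counts in WT and 1935 in Alkbh1-/-, or 192 and 187 CPM. These levels gave a ratio of 0.973 (95% exact interval 0.910 to 1.04). Psma7, the alpha subunit of other tissues, had 267 counts in WT and 202 in Alkbh1-/-, or 32.8 and 19.5 CPM, a ratio of 0.595 (0.493 to 0.717). The Psma7 interval lay below 1 and did not reach that of Psma8. By log2 fold with the pseudocount Psma7 was the lowest of the 43 genes, while by the ratio without it Psme1 was lower (0.572).

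The balance of these alternative subunits therefore differed between the libraries, and this comparison does not depend on the scaling. It does rest on all cells in each library. Sertoli markers summed to 2321 CPM in WT and 1154 in Alkbh1-/-, and Leydig markers to 62.2 and 120. The part of other cells in this balance was not tested. Of the reads in Psma7 and Psma8 together, Psma8 held 85.4% in WT (95% Wilson interval 83.7 to 87.0) and 90.5% in Alkbh1-/- (89.2 to 91.7). There were 5.86 Psma8 reads per Psma7 read in WT and 9.58 in Alkbh1-/-, a 1.63-fold difference (exact conditional interval 1.34 to 2.0). The shares rest on reads, without a correction for the length of the transcripts. Reads that fit both genes, or a processed copy of either, could have been assigned in ways that the sources used here do not give.

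The remaining alpha genes lay near 1. Psma6 was the one alpha gene with an interval above 1, with 1183 and 1666 counts and a ratio of 1.11 (1.03 to 1.20). Psma3 had the highest log2 fold of the ring (0.16) at only 104 and 149 counts. Psma1 (0.05), Psma2 (-0.01), Psma5 (-0.08) and Psma4 (-0.12) had intervals that held 1.

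**Figure D2:**
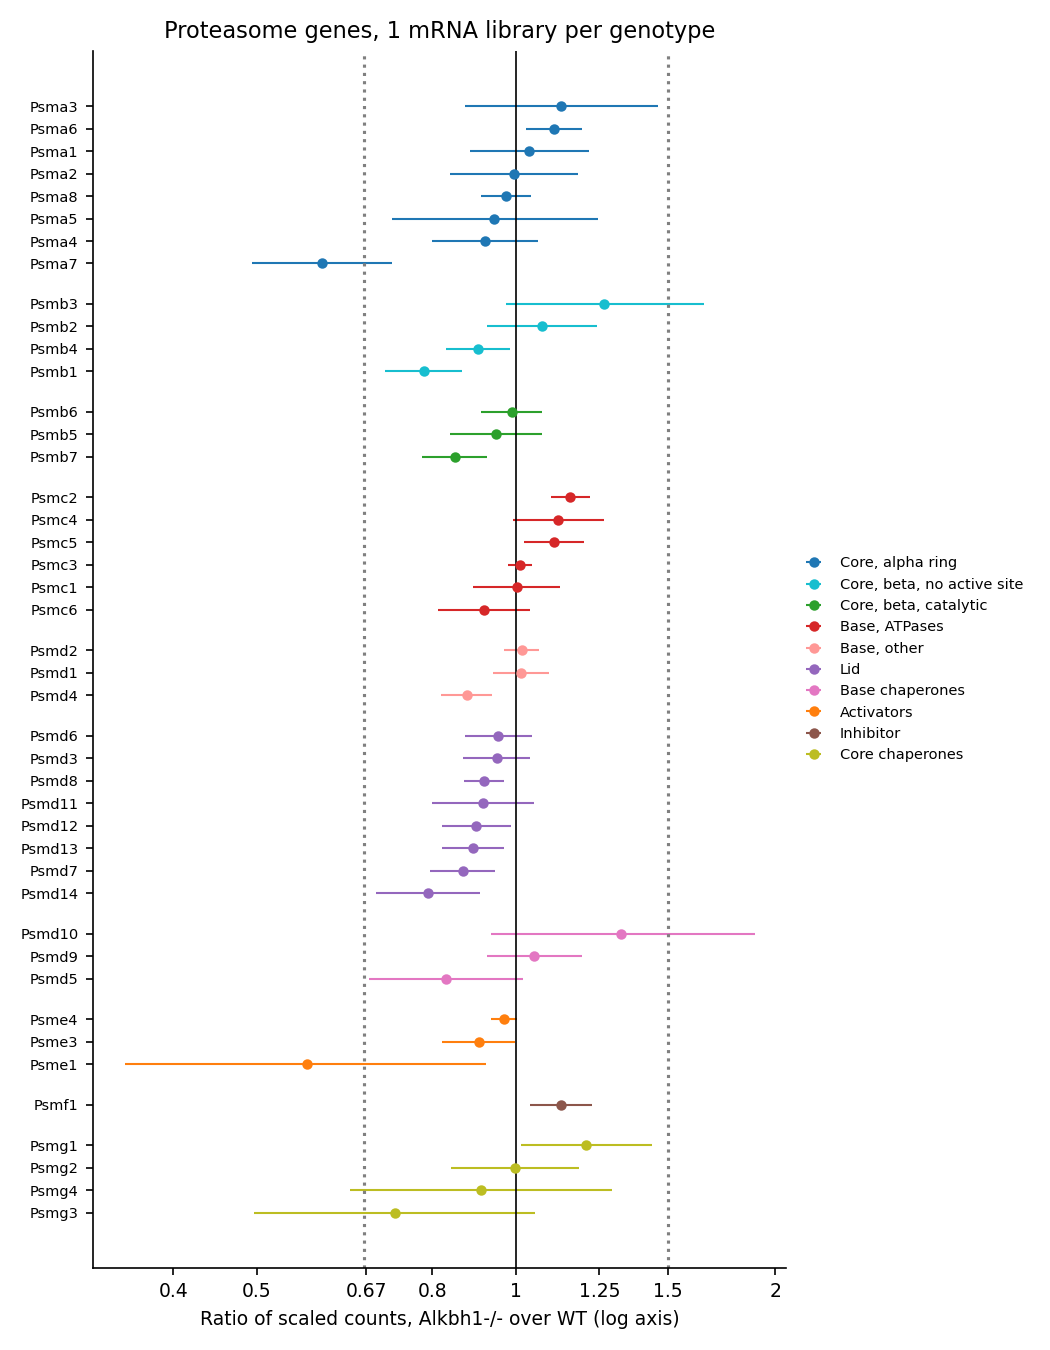
Ratio of scaled counts, Alkbh1-/- over WT (horizontal log axis), for the 43 proteasome genes with 5 CPM or more, grouped and coloured by their place in the complex; points are ratios from 1 library per genotype, bars are 95% exact intervals for counting error, and dotted lines mark 1.5-fold either way. Psma7 (0.595) and Psme1 (0.572) lie past the left line, and all 8 lid genes lie left of 1.

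Of the beta subunits, the 3 with active sites lay between log2 folds of -0.23 and -0.02. Psmb6, the caspase-like site, had 1046 and 1314 counts (ratio 0.989, 0.911 to 1.07). Psmb5, the chymotrypsin-like site, had 485 and 584 counts (0.948, 0.839 to 1.07). Psmb7, the trypsin-like site, had 990 and 1068 counts and was lower in Alkbh1-/- beyond counting error (0.849, 0.778 to 0.927). Among the beta subunits without an active site, Psmb1 was lowest, at 91.3 CPM in WT and 71.4 in Alkbh1-/- (ratio 0.782, 0.705 to 0.867). Psmb4 (ratio 0.903) also had an interval below 1, while those of Psmb2 (1.07) and Psmb3 (1.27, at 95 and 153 counts) held 1.

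The immunoproteasome is the form that immune cells and interferon-treated cells build for antigen presentation. Of its catalytic subunits only Psmb8, which replaces Psmb5, matched a row, and it was near the detection limit. Psmb8 had 2 counts in WT and 1 in Alkbh1-/-. This was 0.411% of the reads in Psmb8 and Psmb5 in WT (Wilson interval 0.113 to 1.48) and 0.171% in Alkbh1-/- (0.0302 to 0.962), so no difference was detectable at this depth. Psme1 and Psme2, the interferon-inducible subunits of the PA28 cap, were also low. Psme1 had 44 and 32 counts, or 5.41 CPM in WT and 3.10 in Alkbh1-/- (ratio 0.572, 0.351 to 0.923); it passed the floor through WT alone, so its place among the genes past 1.5-fold depends on the floor. Psme2 had 9 and 11 counts and stayed below 5 CPM in both libraries. Leukocyte markers, from other cells that could carry these genes, summed to 40 counts in WT and 65 in Alkbh1-/- over 9 genes, with none at 5 CPM; C1qa had 1 count in WT and 0 in Alkbh1-/-, and Ptprc had 2 and 7.

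**Figure D3:**
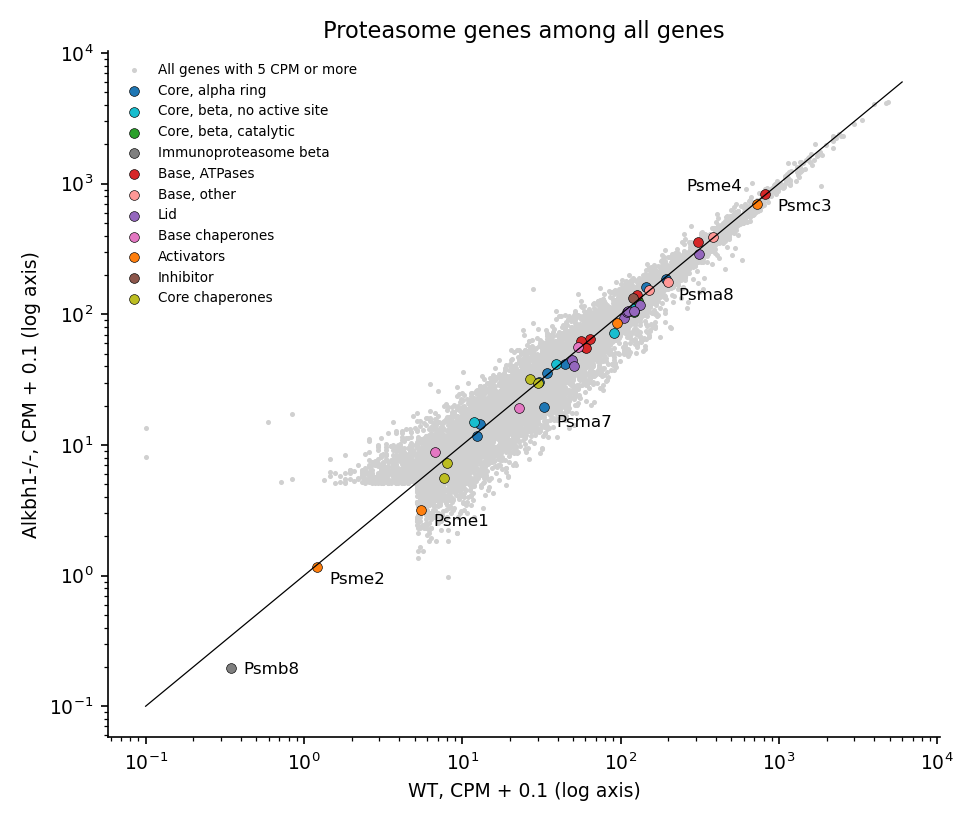
Levels in WT (horizontal) and Alkbh1-/- (vertical), in CPM plus 0.1 on log axes, for the 45 proteasome genes by their place in the complex, over all 12189 genes with 5 CPM or more in grey; the line marks equal levels. Psma7 and Psme1 lie below the line, and Psmb8 (0.246 and 0.0967 CPM) and Psme2 (1.11 and 1.06 CPM) lie at the bottom left.

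In the regulatory particle, the ATPases of the base were mostly level or slightly higher in Alkbh1-/- and the lid was slightly lower. Of the 6 ATPase genes, 5 had a log2 fold above 0, as had 5837 of all 12189 genes. Psmc2 had 2494 counts in WT and 3667 in Alkbh1-/- (ratio 1.16, 1.10 to 1.22), and Psmc5 had 1034 and 1456 (1.11, 1.02 to 1.20). Both intervals lay above 1, as did 23.7% of all genes and 2042 of the 8046 genes with 20 CPM or more. Psmc3, with 6660 and 8551 counts, had a ratio of 1.01 (0.978 to 1.04). Psmc4 (1.12), Psmc1 (1.00) and Psmc6 (0.918) had intervals that held 1. The ratio of Psmc6 was as low as that of the lid gene Psmd8 (0.919). In the rest of the base, the scaffold genes Psmd2 (1.02) and Psmd1 (1.01) were level, and the ubiquitin receptor gene Psmd4 was lower (1629 and 1815 counts, ratio 0.877, 0.820 to 0.938).

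All 8 lid genes had a log2 fold below 0, as did 52.1% of all genes. Their folds lay between -0.33 and -0.07 (median -0.14), and 5 of the 8 intervals lay below 1. So did 26.8% of all genes, and 2493 of the 8046 genes with 20 CPM or more, a level that every lid gene reached. Small shifts of this kind were not confined to the lid. The median was -0.17 over 63 cytosolic ribosomal protein genes and -0.08 over 8 pachytene markers. Psmd14, the deubiquitinating enzyme of the lid, was the lowest, with 413 counts in WT and 415 in Alkbh1-/-, or 50.8 and 40.1 CPM (ratio 0.791, 0.688 to 0.908). Psmd7, its binding partner, had a ratio of 0.867 (0.795 to 0.946). Psmd13 (0.892), Psmd12 (0.900) and Psmd8 (0.919) were the others with an interval below 1. Psmd11 (0.915), Psmd3 (0.950) and Psmd6 (0.954) were not separated from 1 by counting error. Sem1, a lid subunit whose symbol the rule does not take, had 747 and 828 counts (ratio 0.872, 0.789 to 0.964).

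The make-up of proteasome reads moved accordingly, by under 2 percentage points. The ATPase genes held 26.8% of the reads in the 45 genes in WT (Wilson interval 26.4 to 27.2) and 28.7% in Alkbh1-/- (28.4 to 29.1). The lid genes held 18.6% (18.3 to 19.0) and 17.2% (16.9 to 17.6). The beta genes held 10.8% (10.5 to 11.1) and 10.0% (9.79 to 10.3). These intervals did not overlap between the libraries, nor did those of the inhibitor gene Psmf1 (2.23% and 2.56%). Those of the alpha genes (9.45% and 9.56%) and of the other groups did. The shares are parts of the same whole and are not separate results. Counting intervals of single genes also left out 1 often, below it in 26.8% of all genes and above it in 23.7%. Without Psmc2, the ATPase share was 22.4% in WT and 23.6% in Alkbh1-/-.

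The genes that assemble, activate or inhibit the proteasome showed no common direction. Psme4, the PA200 cap, had 5905 counts in WT and 7266 in Alkbh1-/-, or 726 and 703 CPM (ratio 0.968, 0.935 to 1.00). Psme3, the nuclear PA28 gamma cap, had a ratio of 0.906 (0.821 to 0.999). Psmf1, which encodes the inhibitor PI31, was higher, with 967 and 1385 counts (1.13, 1.04 to 1.22). Psmg1 and Psmg2 encode one pair of chaperones that build the alpha ring, and Psmg3 and Psmg4 the other. Psmg1 was higher, at 26.6 CPM in WT and 32.0 in Alkbh1-/- (1.21, 1.01 to 1.44), and Psmg2 was level (0.997). Psmg3 (0.723) and Psmg4 (0.910) had few reads, with 57 to 74 counts per library, and intervals that held 1. The chaperones of the base, Psmd5 (0.829), Psmd9 (1.05) and Psmd10 (1.33, at 54 and 91 counts), also had intervals that held 1.

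Among partners of the proteasome that are not named Psm, 0 of 12 genes were at least 1.5-fold higher and 1 was lower. This is near the shares over all genes with 5 CPM or more, 8.06% higher and 8.79% lower. The lower partner gene was Pomp, the chaperone that completes the core particle, at 71.0 CPM in WT and 46.8 in Alkbh1-/- (ratio 0.659, 0.583 to 0.745). Its log2 fold of -0.59 lay just past 1.5-fold and fell inside it with library totals only (-0.56), upper quartile scaling (-0.57) or a pseudocount of 5 CPM (-0.55). Adrm1, a ubiquitin receptor of the base, had a log2 fold of -0.25, the deubiquitinase genes Usp14 and Uchl5 had -0.18 and 0.02, and Akirin2, which brings proteasomes into the nucleus, had 0.06. The median of the 12 was -0.15.

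Ubiquitin receptors and shuttles, which carry substrates to the proteasome, were at least 1.5-fold lower in 1 of 11 genes and higher in 0, around a median of -0.08. Shares over all genes with 5 CPM or more were 8.79% lower and 8.06% higher at that fold. The lower gene of the 11 was Ubqln2, a ubiquilin expressed in many tissues, with 276 counts in WT and 157 in Alkbh1-/- (ratio 0.448, 0.366 to 0.546). Its relatives Ubqln1 and Ubqln4 had log2 folds of -0.08 and 0.27. Of the ubiquitin and E1 genes, 1 of 5 was at least 1.5-fold higher and 0 lower. It was Uba1y, the copy of the ubiquitin-activating enzyme on the Y chromosome, with 126 and 271 counts (1.69, 1.37 to 2.11), while Uba1 had a log2 fold of -0.30. Reads may be shared between Uba1y and Uba1. The polyubiquitin gene Ubb had -0.11.

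Of 10 regulators of proteasome transcription with 5 CPM or more, 8 had a log2 fold below 0, with a median of -0.31. At 1.5-fold, 2 were lower and 1 higher. Among all genes, 52.1% had a log2 fold below 0, 8.79% were at least 1.5-fold lower and 8.06% higher. Nfe2l1, the factor that raises proteasome genes when proteasome activity drops, lay within 1.5-fold (log2 fold -0.53). It had 1173 counts in WT and 1027 in Alkbh1-/-, or 144 and 99.3 CPM (ratio 0.689, 0.633 to 0.750). Mafk, a small partner of that factor, had 16.8 and 9.96 CPM (0.592, 0.454 to 0.770). Nfe2l3 (48 and 32 counts, 0.525) was the other gene past 1.5-fold lower, and Foxo4 (30 and 73 counts, 1.91) the gene past it higher. Nfe2l3 passed the floor through WT alone and Foxo4 through Alkbh1-/- alone. With a pseudocount of 5 CPM, Mafk (-0.55), Nfe2l3 (-0.43) and Foxo4 (0.47) were all within 1.5-fold, and none of the 3 reached 20 CPM. Mybl1, the transcription factor of pachytene genes, had a log2 fold of -0.08. Of the antigen presentation and interferon genes, 7 of 14 reached 5 CPM and 0 passed 1.5-fold; Tap1 and Tap2, the peptide transporter, had 7 and 6 counts in WT and 15 and 7 in Alkbh1-/-.

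**Figure D4:**
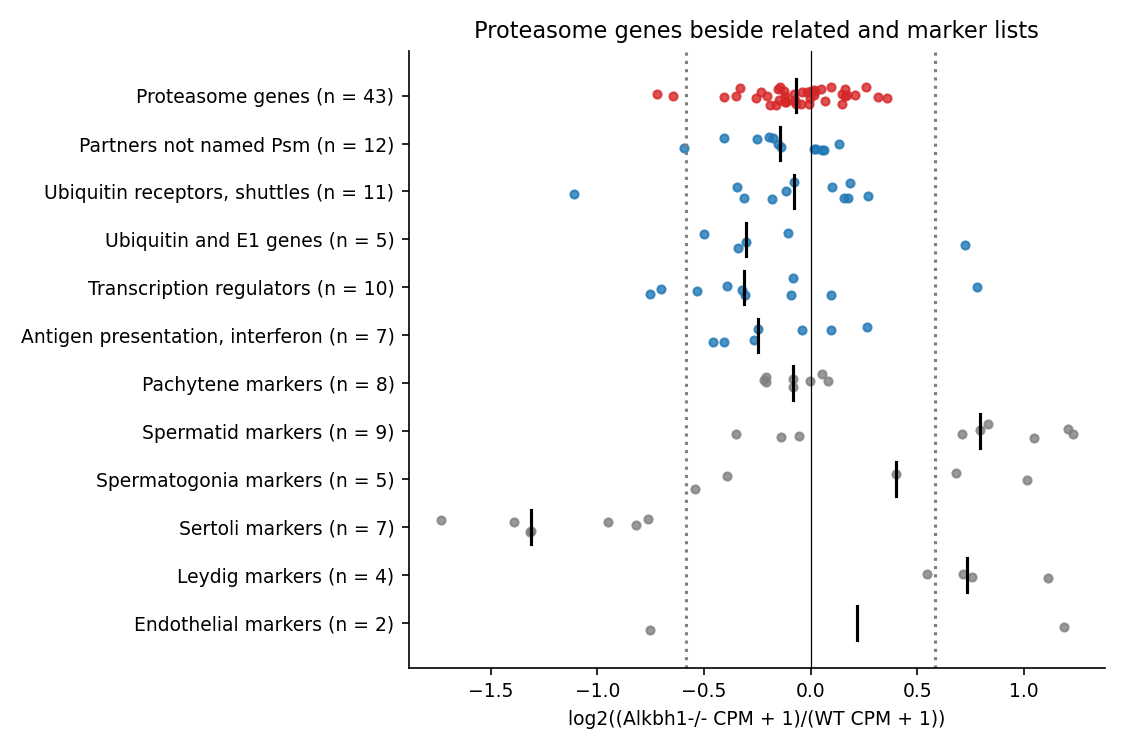
Log2 fold of Alkbh1-/- over WT (horizontal) for each gene with 5 CPM or more in the proteasome set (red), in related lists (blue) and in cell type marker lists (grey); each point is a gene, placed vertically at random within its row, black bars are medians and dotted lines mark 1.5-fold. Proteasome genes and pachytene markers lie around 0, Sertoli markers lie to the left (median -1.31) and spermatid markers mostly to the right (0.79).

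Markers of other cells moved between the libraries further than the proteasome did. At 1.5-fold, 8.79% of all genes with 5 CPM or more were lower and 8.06% higher. Pachytene markers, which check the labelled cell type, were present, with 8 genes at a median of -0.08 and 0 past 1.5-fold. Of their intervals, 4 lay below 1 (Ldhc at a ratio of 0.861, Tdrd6 0.864, Pgk2 0.866 and Sycp2 0.946) and 1 above (Piwil1, 1.06). Sertoli markers were at least 1.5-fold lower in 7 of 7 genes (summed level 2321 CPM in WT and 1154 in Alkbh1-/-). Clu made up most of that sum, with 1847 CPM in WT and 957 in Alkbh1-/-, and Amh was the least at 5.29 and 2.71 CPM. The log2 folds of the 7 genes were -1.73 for Sox9, -1.39 for Aard, -1.32 for Gata4, -1.31 for Inhbb, -0.95 for Clu, -0.82 for Wt1 and -0.76 for Amh. Spermatid markers were at least 1.5-fold higher in 6 of 9 (1170 and 1461 CPM): the sperm calcium channel genes Catsper3 (1.23) and Catsper4 (1.21), Sun5 (1.05), the acrosome genes Acrv1 (0.83) and Spaca1 (0.79), and Prm2 (0.71). The protamine and transition protein genes Prm1 (-0.05), Tnp2 (-0.14) and Tnp1 (-0.35) were not, so spermatid markers did not share a direction. Leydig markers were at least 1.5-fold higher in 3 of 4, with summed levels of 62.2 and 120 CPM over the 5 with a row; these were the steroid synthesis genes Cyp17a1 (1.11), Star (0.76) and Cyp11a1 (0.71). Of 5 spermatogonial markers with 5 CPM or more, Kit (1.02) and Stra8 (0.68) were past 1.5-fold higher and 0 lower, with summed levels of 104 and 101 CPM over 6 genes. The list went both ways, since Uchl1 (-0.54) and Dmrt1 (-0.39) had intervals below 1. Of the endothelial markers, 2 of 4 reached 5 CPM, with Tek higher (1.19) and Cdh5 lower (-0.75), and summed levels were 15.0 and 16.6 CPM. Tek, Cdh5 and Amh passed the floor only through the library where they were higher. With a pseudocount of 5 CPM, Cdh5 (-0.46), Amh (-0.42), Stra8 (0.46) and Cyp11a1 (0.58) were within 1.5-fold. The part of other cells in the differences of Psma7, Ubqln2, Nfe2l1 and the other genes above was not tested. Fewer cells of a type and less RNA per cell cannot be told apart in such bulk samples.

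Sequence upstream of the genes was read from RefSeq windows on GRCm38.p6, from 250 bases before to 50 after the gene start, which 37 of the 45 genes matched. Each motif was searched on both strands. Core letters of the nuclear respiratory factor 1 motif, GCGCANGCG, were found for 7 of these 37 genes (18.9%). They were found for 15.9% of genes with a window and 5 CPM or more, and for 7.03% of all genes with a window. A gene counted when any of its windows held a match, so genes with more windows had more room for a match. The antioxidant response element core TGACNNNGC, read by Nfe2l1, was in 16.2% of the 37, 16.8% of genes with 5 CPM or more and 14.0% of all. The interferon-stimulated response element core TTCNNTTTC was in 18.9% of the 37, 8.23% of genes with 5 CPM or more and 9.76% of all. The CCAAT box was in 32.4%, 43.1% and 41.1%, and the gamma-activated site core TTCNNNGAA in 8.11%, 8.20% and 9.55%. A match is a description of the letters in the window, and these motifs can overlap each other.

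Psma7 had the lowest log2 fold, Psmd14 was the lowest lid gene, and Psmc5 was an ATPase gene with an interval above 1. Psmb5 and Psmb8 fill the same place in the core, and both intervals held 1. The 150 bases before the start of these 5 genes are shown, with motif matches in capitals. They lie on GRCm38 at chr2:180042465-180042614 (Psma7, minus strand), chr14:54617996-54618145 (Psmb5, minus), chr17:34198045-34198194 (Psmb8, plus), chr2:61711544-61711693 (Psmd14, plus) and chr11:106256035-106256184 (Psmc5, plus). The capitals mark the antioxidant response element core in Psmb5, the gamma-activated site core in Psmb8 and the nuclear respiratory factor 1 motif in Psmd14 and Psmc5; Psma7 held none of the motifs searched in this stretch.
Psma7: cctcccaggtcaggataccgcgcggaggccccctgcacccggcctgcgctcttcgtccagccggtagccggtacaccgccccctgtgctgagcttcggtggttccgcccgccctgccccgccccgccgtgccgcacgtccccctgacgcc
Psmb5: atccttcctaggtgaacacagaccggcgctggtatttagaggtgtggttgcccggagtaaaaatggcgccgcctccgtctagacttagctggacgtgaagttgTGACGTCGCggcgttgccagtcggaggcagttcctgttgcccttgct
Psmb8: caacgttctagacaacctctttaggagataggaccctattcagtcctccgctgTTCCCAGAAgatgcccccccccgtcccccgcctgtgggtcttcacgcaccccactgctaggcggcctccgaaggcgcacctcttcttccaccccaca
Psmd14: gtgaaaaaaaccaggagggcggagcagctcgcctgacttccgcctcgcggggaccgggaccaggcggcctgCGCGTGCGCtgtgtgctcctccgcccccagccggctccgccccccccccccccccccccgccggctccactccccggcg
Psmc5: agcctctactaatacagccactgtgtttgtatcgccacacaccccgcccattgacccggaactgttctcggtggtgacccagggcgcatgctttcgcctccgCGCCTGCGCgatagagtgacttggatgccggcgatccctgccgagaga
The matches began 47 bases before the start in Psmb5, 97 in Psmb8, 79 in Psmd14 and 48 in Psmc5. The genes with the nuclear respiratory factor 1 motif did not share a direction in the mRNA: Psmd14 had a log2 fold of -0.33, Psma4 -0.12 and Psma2 -0.01, while Psmc5 had 0.15, Psmc4 0.16, Psma3 0.16 and Psmg1 0.26.

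The SD of the log2 folds was also taken in other gene groups. Of 63 cytosolic ribosomal protein genes with 5 CPM or more, 4 were at least 1.5-fold lower and 1 higher, with an SD of 0.32 and a median log2 fold of -0.17. Of 18 heat shock genes, 2 were lower and 0 higher, with an SD of 0.44 and a median of -0.07. By the same measure 8.79% of all genes with 5 CPM or more were lower and 8.06% higher. The SD over the 43 proteasome genes was 0.22, that of the 12 partners not named Psm was 0.21 and that of the 8 pachytene markers was 0.12; the difference between these groups was not tested.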

How the data were processed

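The analysis used mRNA of pachytene spermatocytes, with a single library for each genotype (WT, Alkbh1-/-). Per the labels' protocols, oligo(dT) particles selected mRNA from RNA over 200 nt, with an input of 1 µg for WT and 1.6 µg for Alkbh1-/-. Libraries had 15 PCR cycles and 75 bp paired-end reads. The authors deposited raw read counts for each Ensembl gene, all whole numbers. The submitters' processing notes name CASAVA 1.3, Novoalign, TopHat, bedtools and mm9 with no role for any of them; how reads were counted, and whether by strand, is not given. Of 21310 identifiers, 93.1% matched a symbol.

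Counts were scaled with edgeR 4.0.16 (TMM, R 4.3.3) to CPM, and log2((Alkbh1-/- + 1)/(WT + 1)) was taken; this pseudocount of 1 CPM shrinks the fold of low genes. Calls at 1.5-fold were made where either library had 5 CPM or more. Ratios of scaled counts, without a pseudocount, have exact (Clopper-Pearson, 95%) intervals and shares have Wilson intervals; PCR copies are not independent molecules, so these cover counting error only. There was no test. The fold and interval code was run on simulated counts that varied by counting error alone. That checks the arithmetic only, since the simulation held no TMM step, PCR copies or differences between libraries of a genotype. Python 3.11.15, numpy 2.4.6, pandas 2.3.3 and scipy 1.17.1 were used, and DESeq2 1.42.0 gave alternative size factors.

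Named were Psma7, Psma8, catalytic subunits and their partners, members past 1.5-fold and near it, the 3 highest and 3 lowest of each subcomplex, every activator, inhibitor and chaperone, and genes of the fixed lists past 1.5-fold. Members and lists were chosen with earlier results of these data known, and the interferon motifs after the values were seen. After a first motif search had been seen, the letters searched for the nuclear respiratory factor 1 motif and the interferon-stimulated response element were each shortened by a single letter. With the longer letters, the proteasome share was the same for the former and lower for the latter, and the background shares of both were lower, so the ratio of the proteasome share to the background was higher than for the letters given here. Shares per coding length were planned and not run, since no length was used here. Some genes are not reported here and were left out of the lists of ubiquitin receptors and of ubiquitin and E1 genes after values were seen, which changed the counts and medians of these lists alone. The small RNA tables were not used.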

Additional observations from a re-analysis of the deposited data

How the results depend on the processing

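With 1 library per genotype, no replicate could be left out. No paired analysis was possible because each genotype has 1 mRNA library and the result comes from no test. The number of proteasome genes past 1.5-fold was 2, both lower, and became 1 with a pseudocount of 5 CPM or a floor of 20 CPM, leaving Psma7. The median log2 fold of the proteasome genes moved from -0.068 to -0.037 with library totals only and to -0.047 with upper quartile scaling. The log2 ratio of their summed counts moved from -0.029 to 0.0019 and -0.0077 in these settings. Psma7 lay between -0.73 and -0.62 in all 8 alternative settings. All 8 lid genes stayed below 0 in each setting, and 4 or 5 of 6 ATPase genes stayed above. Chosen after the data were seen, leaving out Psmc2 gave ATPase shares of 22.4% in WT and 23.6% in Alkbh1-/-, and leaving out Psmd8 gave lid shares of 13.5% and 12.4%. Genes under about 100 counts, such as Psme1 and Psmg3, are limited by depth.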
